A study of Mus musculus with 8 samples.

Results

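The nuclear genes for subunits of the oxidative phosphorylation complexes were described across the 4 CD4 T cell types of peripheral lymph nodes (pLN). Members were taken by gene name from the array annotation: names starting with Ndufa, Ndufb, Ndufc, Ndufs or Ndufv for complex I, Sdha to Sdhd for complex II, Uqcr and Cyc1 for complex III, Cox4 to Cox8 for complex IV and Atp5 for complex V, with Ndufa4 placed under complex IV. The array held 87 such names on 127 probes among 29924 gene names, and 83 were kept among 15764 kept gene names. The filter asked that the brightest probe of a gene exceed the local background clearly in 1 or more cell types, on each of the 2 arrays, and 82 of the 83 did so on all 8 arrays. Of the 83, 36 belonged to complex I, 4 to complex II, 9 to complex III, 16 to complex IV and 18 to complex V. The remaining 4, Cox7b2, Cox8b, Cox8c and Ndufa4l2, are isoforms or relatives best known from other tissues and lay at the floor of 20 relative units (RU, the scale of the normalized intensities). The names also took in Cox7a2l, which encodes a factor that joins complexes III and IV into supercomplexes, Atp5s and Atp5sl, which are now named Dmac2l and Dmac2, and the pseudogene Atp5c1-ps, whose sequence is close to that of Atp5c1.

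The cells came from B6.Cg-Foxp3<tm1Mal> mice of both sexes, 8 to 14 weeks old, in which GFP marks the Foxp3-expressing cells. All groups received the same s.c. immunization with KLH in alum and were taken at day 12 (d12) or day 25 (d25), and every sample was a pool of 8 to 15 mice, so that the naïve cells used as the comparison also came from immunized mice. The 4 groups were naïve CD4 T cells (GFP-PD1-GL7-), TFH cells (GFP-PD1hi GL7+), Treg cells (GFP+PD1-GL7-) and TFR cells (GFP+PD1hi, GL7 positive or negative). Each group had 2 arrays, 1 of each day. There was no replicate within a day, and p-values measure only the spread between these arrays after cell type and day are accounted for.

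Oxidative phosphorylation couples the oxidation of NADH and succinate to ATP synthesis in the inner mitochondrial membrane. Complexes I, III and IV pump protons while electrons pass to oxygen, complex II feeds electrons from succinate without pumping, and complex V uses the proton gradient to make ATP. Complexes I, III, IV and V contain a core that carries the cofactors or the catalytic sites and many small accessory subunits, and part of the core of each is encoded by mitochondrial DNA. Naïve T cells are known to rely largely on mitochondrial respiration, and activated T cells combine it with glycolysis.

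Promoter sequences were looked up for the members in RefSeq (GRCm38.p6). All 83 names were found, 3 of them under another symbol, and 68 had a promoter window. The letters searched on both strands in the 250 bases before the start were GCATGCGC for NRF1, CCGGAAG for the ETS factor GABPA, AAGATGGC for YY1, GGGCGG for SP1 and TCAAGGTCA for ERR, which are the sequence preferences of factors known to bind promoters of respiratory genes. The NRF1 letters stood in 11.8% of the members' promoters and in 2.56% of the 27025 genes with a window, and the ETS letters in 17.6% and 7.83%. SP1 letters were found in 36.8% and 35.4%, YY1 letters in 2.94% and 1.83%, and ERR letters in 1 member, Atp5g3, and in 0.422% of all genes. The median GC content of these bases was 56.4% in the members and 52% in all genes. Among the 26 members with a window that were called higher in both TFH and TFR cells, as described further on, 2 held the NRF1 letters and 6 the ETS letters, against 6 and 6 of the 42 others. The 250 bases before the start are given for 3 members of the first kind that hold such letters, for Uqcr10, Cox7a1 and Cox7a2l, whose levels moved furthest or against the rest, in lower case with every match in capitals.
Cox6a1, chr5:115348959-115349208, minus strand: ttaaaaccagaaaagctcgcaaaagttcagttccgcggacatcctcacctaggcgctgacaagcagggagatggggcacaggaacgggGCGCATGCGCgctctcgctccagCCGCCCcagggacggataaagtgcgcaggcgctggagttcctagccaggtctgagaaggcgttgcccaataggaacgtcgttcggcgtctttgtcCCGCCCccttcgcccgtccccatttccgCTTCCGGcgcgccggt
Atp5j, chr16:84834977-84835226, minus strand: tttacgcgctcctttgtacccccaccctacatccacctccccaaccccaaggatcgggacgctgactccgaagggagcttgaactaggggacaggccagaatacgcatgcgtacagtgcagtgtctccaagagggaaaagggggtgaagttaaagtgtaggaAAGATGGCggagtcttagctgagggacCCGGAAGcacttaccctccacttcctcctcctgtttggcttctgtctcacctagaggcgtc
Atp5g3, chr2:73911327-73911576, minus strand: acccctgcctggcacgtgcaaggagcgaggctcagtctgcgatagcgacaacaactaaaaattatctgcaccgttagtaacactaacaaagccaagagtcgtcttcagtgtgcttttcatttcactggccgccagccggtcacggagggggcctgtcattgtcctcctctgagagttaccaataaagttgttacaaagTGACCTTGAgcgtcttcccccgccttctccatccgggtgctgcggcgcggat
Uqcr10, chr11:4704345-4704594, minus strand: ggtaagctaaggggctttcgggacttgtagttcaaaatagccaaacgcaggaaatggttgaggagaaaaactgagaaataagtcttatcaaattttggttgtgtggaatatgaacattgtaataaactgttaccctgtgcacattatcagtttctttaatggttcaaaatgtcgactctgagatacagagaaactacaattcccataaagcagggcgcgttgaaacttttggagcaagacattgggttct
Cox7a1, chr7:30183921-30184170, plus strand: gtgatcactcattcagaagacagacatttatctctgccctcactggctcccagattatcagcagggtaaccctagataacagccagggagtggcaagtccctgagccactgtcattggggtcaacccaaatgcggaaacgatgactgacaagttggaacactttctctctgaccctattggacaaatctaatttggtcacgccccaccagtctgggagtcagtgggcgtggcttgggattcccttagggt
Cox7a2l, chr17:83514334-83514583, minus strand: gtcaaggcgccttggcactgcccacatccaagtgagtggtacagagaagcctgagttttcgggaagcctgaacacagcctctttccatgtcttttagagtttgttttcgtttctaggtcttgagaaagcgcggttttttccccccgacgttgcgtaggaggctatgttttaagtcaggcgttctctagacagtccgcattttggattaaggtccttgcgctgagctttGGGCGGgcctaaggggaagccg
In Cox6a1 the capitals mark an NRF1 run matched on both strands, which therefore overlap, then SP1 letters on the opposite strand at 2 places and ETS letters next to the start. Atp5j holds YY1 and ETS letters, Atp5g3 the ERR letters on the opposite strand and Cox7a2l the SP1 letters. None of the 5 motifs was found in the windows of Uqcr10 and Cox7a1. Such matches describe letters only.

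The arrays carried the identity of their labels. Foxp3 lay at 37266 to 49262 RU on the Treg and TFR arrays and at 66 to 358 RU on the naïve and TFH arrays, and Cxcr5, Bcl6 and Pdcd1 were called higher in TFH than in naïve and in TFR than in Treg cells. Between 46.3% and 50.4% of probes were well above background and no retained spot was saturated. All d12 arrays lay on 1 slide, and the d25 arrays on a slide with naïve and TFH cells and a slide with Treg and TFR cells, so that day and slide cannot be told apart. The summed level of 10 proliferation markers moved with the follicular groups: 3662 to 4518 RU on naïve, 22366 to 30390 RU on TFH, 9272 to 9749 RU on Treg and 52866 to 72542 RU on TFR arrays, with 8 of the 9 kept markers called higher in both TFH and TFR cells and Aurkb not well above background on any array. The summed level of 7 B cell markers was 1701 RU on the TFH d12 and 12834 RU on the TFH d25 array, with 4545 to 8781 RU on the other 6 arrays, and Pax5 lay at the floor everywhere. On the Treg and TFR arrays this sum was mostly Cd79b, at 4284 to 7547 RU. Of the 6 kept B cell markers, 5 had lower and 1 higher values in Treg than in naïve cells, none called. Of the 7 myeloid markers, Cd14, Clec9a and Adgre1 were not well above background on any array, and the sum, 14924 to 29749 RU, was mostly Itgam. The summed level of Cd8a and Cd8b1 was 4208 to 5118 RU on the naïve and Treg arrays and 2110 to 3174 RU on the TFH and TFR arrays, with 1 of the 2 called lower in TFH and both in TFR cells. The part of these markers in the results was not tested. In pooled cells, fewer cells with an RNA and less of that RNA per cell cannot be told apart.

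TFH cells were compared with naïve CD4 T cells to ask how the subunit genes change when a conventional T cell takes on the follicular state. Of the 83 members, 37 were called higher in TFH cells and 2 lower (limma, adjusted p under 0.05 over all genes), whereas 20.9% of all genes were called higher and 25.6% lower. The median difference of the members was 0.32 on the log2 scale, against -0.07 over all genes tested and -0.03 over the brightest 25% of genes, to which 76 of the 83 members belonged. On 60 members the TFH level was above the naïve level at both days, as on 35.4% of all genes. The median was 0.28 with the d12 arrays alone and 0.28 with the d25 arrays alone. Without the naïve d12 or the naïve d25 array 15 and 14 members were called higher, and without the TFH d25 array, which had the highest B cell marker level, 32.

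The size of this rise depended on the scaling between arrays. With each array scaled by its 75th percentile only, in place of quantile normalization, 17 members were called higher and 5 lower, and the median fell to 0.05, while the median of all genes went from -0.07 to -0.13. That is 20.5% of the members called higher against 19.7% of all genes, a share near the background, and 6.02% called lower against 29.4%. The 17 members were all among the 37, but 20 of the 83 differences changed sign. Of the 37 risers, Atp5e, Atp5h, Cox6a1, Ndufa2 and Uqcrh had a negative difference under this scaling. The move followed brightness. The 22 members with a mean level of 100000 RU or more went from a median of 0.37 to -0.08, and the 875 genes of all kinds in that range from -0.05 to -0.84, with 655 of the 875 called lower. The 61 members under 100000 RU went from 0.25 to 0.09. Under either scaling the median of the bright members lay above the median of the genes in their brightness range. In the table deposited by the authors, which was also quantile normalized, the members' median was 0.30 with 38 called higher and 2 lower.

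**Figure D1:**
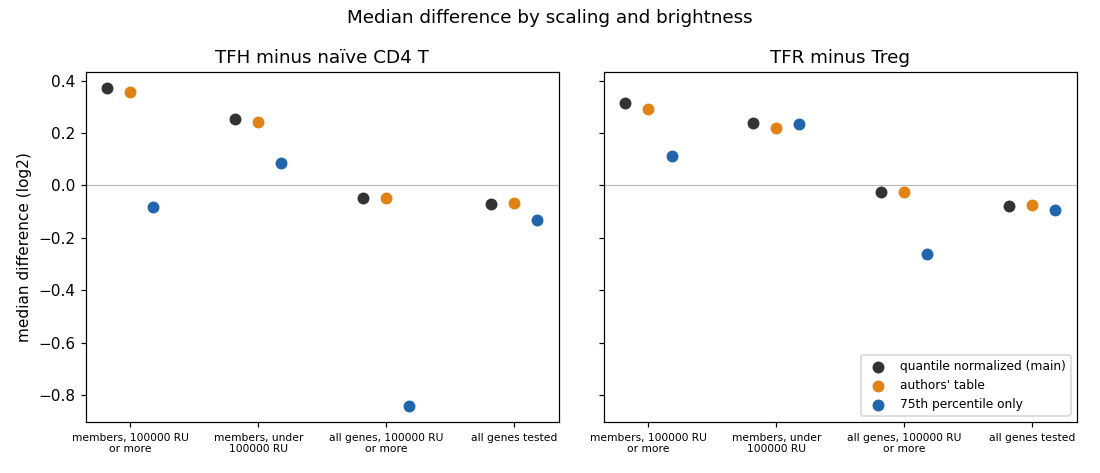
Median log2 difference (vertical axis) of TFH from naïve cells (left) and of TFR from Treg cells (right) for members and for all genes, split at a mean level of 100000 RU, with 1 point per scaling. In TFH cells the bright members lay at 0.37 after quantile normalization and at -0.08 with the 75th percentile only, where all bright genes lay at -0.84.

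The counts by complex moved with the scaling as well. With the 75th percentile scaling the TFH counts were 9 higher and 1 lower of 36 in complex I (median 0.11), 3 and 1 of 9 in complex III (0.05), 4 and 2 of 16 in complex IV (0.03), 1 and 1 of 18 in complex V (0.02) and none of 4 in complex II (-0.16). In complex V this was 5.56% called higher, against 19.7% of all genes. The values that follow are those after quantile normalization.

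Complex I, the NADH dehydrogenase, had 18 of 36 members called higher and 1 lower in TFH cells, with a median of 0.33. Ndufb8, an accessory subunit of the membrane arm, lay at 68246 and 59501 RU on the naïve arrays (d12 and d25), against 113041 and 104660 RU on the TFH arrays. Each TFH array was above each naïve array, a rise of 0.77 ± 0.09 (SE), adjusted p = 0.00297. Ndufa1, a small accessory subunit, rose by 0.76 ± 0.09, from 124231 and 125340 RU to 203685 and 219287 RU. Ndufa13, known also as GRIM-19, rose by 0.77 ± 0.10 on its brightest probe, but a second, dimmer probe of this name differed by -0.71, and the mean of its probes was no longer called. Under the 75th percentile scaling Ndufb8 was at 0.56 and still called, and Ndufa1 and Ndufa13 were at 0.29 and 0.14 and no longer called (adjusted p = 0.0634 and 0.235). The other risers of complex I lay between 0.32 and 0.63.

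Complex III, the cytochrome bc1 complex, had 5 of 9 members called higher and none lower (5 at an unadjusted p under 0.05), with a median of 0.33. All 5, Uqcr10, Uqcrq, Uqcr11, Uqcrb and Uqcrh, encode small subunits outside the catalytic core. Uqcr10 lay at 64197 and 58286 RU in naïve and at 109081 and 105207 RU in TFH cells. It rose by 0.81 ± 0.08 (1.75-fold, adjusted p = 0.00195), and its 3 probes, one of them at chr11:4601979-4602038 (NCBI37), gave 0.78 to 0.83. It was called under every alternative tried. Uqcrh rose by 0.33 on its brightest probe, but its other probe gave -0.02. With the 75th percentile scaling Uqcrh turned to -0.45 and was called lower (adjusted p = 0.015).

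Complex IV, cytochrome c oxidase, had 8 of 16 members called higher and 1 lower, with a median of 0.36. Cox8a, the common isoform of the smallest subunit, rose by 0.92 ± 0.10 (1.90-fold, adjusted p = 0.00239), from 201483 and 181950 RU to 353672 and 373130 RU. Under the other scaling, by the 75th percentile only, it was at 0.25 and no longer called (adjusted p = 0.0647). Cox6b1, Cox6c, Cox5b and Cox6a1 rose by 0.67, 0.65, 0.61 and 0.61, of which Cox6a1 turned to -0.14 with the 75th percentile scaling. Complex V, the ATP synthase, had 6 of 18 members called higher and none lower (8 at an unadjusted p under 0.05), with a median of 0.26. Atp5e, Atp5j and Atp5g3, for the epsilon subunit, a stalk subunit and 1 of the genes of the membrane ring, rose by 0.68, 0.68 and 0.63. Atp5e was at -0.10 with the 75th percentile scaling, Atp5g3 at 0.30 and no longer called, and Atp5j at 0.53 and still called. Complex II, succinate dehydrogenase, had none of its 4 members called and none at an unadjusted p under 0.05, with a median of -0.09. Sdha, the flavoprotein, was at -0.16 (95% interval -0.41 to 0.09) and Sdhb, the iron-sulfur protein, at 0.18 (-0.07 to 0.43), intervals that do not show an unchanged level.

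**Figure D2:**
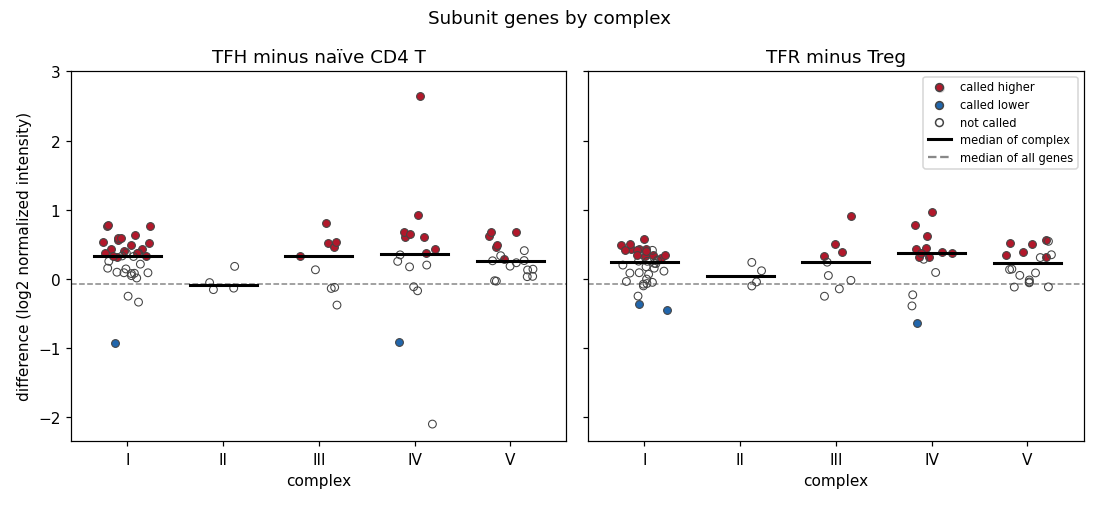
Difference of every member (circles) by complex, on the log2 scale, for TFH minus naïve (left) and TFR minus Treg (right), with the median of the complex as a bar and of all genes as a dashed line. Complex medians lay between 0.26 and 0.36 in TFH cells except for complex II at -0.09. With the 75th percentile scaling they fell to between 0.02 and 0.11, complex II to -0.16, and 20 of the 83 TFH differences changed sign with the 75th percentile scaling.

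Of the 37 risers 34 stood outside a list of 23 members called here the catalytic and redox core. The list holds members that carry the flavin, iron-sulfur, heme or catalytic sites, or lie beside them. Its members of complex IV, Cox4i1, Cox5a and Cox5b, carry none of these sites. The list had 3 called higher in TFH cells (13%, against 20.9% of all genes) and a median of 0.13. The other 60 members had 34 called higher (56.7%) and 2 lower and a median of 0.37. The difference between these lists was not tested. Both medians fell with the 75th percentile scaling, to -0.03 in the core and 0.13 in the others, with 2 higher and 2 lower of the 23 and 15 higher and 3 lower of the 60 (25% of the 60 called higher, against 19.7% of all genes). The 3 of the core were Ndufs8, which holds iron-sulfur clusters of complex I and rose by 0.63 ± 0.09, Ndufv2, another iron-sulfur subunit, at 0.33 ± 0.08, and Cox5b, at 0.61 ± 0.09. Ndufv2 was at 0.23 with the 75th percentile scaling and no longer called. Not called were Ndufv1 at 0.09, Ndufs1 at 0.08, Ndufs3 at 0.21 and Ndufs7 at 0.15, further core subunits of complex I. In complex III the Rieske protein Uqcrfs1 was at -0.38, Cyc1 at -0.12, Uqcrc1 at 0.13 and Uqcrc2 at -0.14. In complex V the subunits of the catalytic head, Atp5a1, Atp5b and Atp5c1, were at -0.03, 0.03 and -0.03, and Atp5d and Atp5o at 0.23 and 0.26. Atp5a1 and Atp5b were at -0.11 and -0.22 with the 75th percentile scaling, not called, and Atp5c1 at -0.30 and called lower (adjusted p = 0.0359). A second, dimmer probe of Atp5c1 gave 0.29 after quantile normalization. Of the core members of complex IV, Cox4i1 and Cox5a were at 0.17 and 0.25 and not called, and Cox4i1 was at -0.40 and called lower with the 75th percentile scaling. Sdhd, a core member of complex II, was at -0.05 and not called.

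2 members fell in TFH cells. Cox7a2l lay at 230561 and 229925 RU on the naïve arrays, against 121338 and 122149 RU on the TFH arrays, with a difference of -0.92 ± 0.08 and an adjusted p of 0.00116. Treg cells had 204955 and 203685 RU and TFR cells 133154 and 128614 RU, or -0.64 (adjusted p = 0.00476). The follicular and non-follicular arrays did not overlap, and all 3 probes had negative differences in both comparisons, from -1.38 to -0.92 in TFH cells. Ndufa10, an accessory subunit of complex I, lay at 12361 and 11930 RU in naïve and 6644 and 6179 RU in TFH cells (-0.92 ± 0.09, adjusted p = 0.00158), while the Treg arrays gave 11052 and 10397 RU and the TFR arrays 8458 and 7226 RU (-0.46, adjusted p = 0.0161). Both calls in TFH cells held under every alternative tried, as did that of Cox7a2l in TFR cells.

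**Figure D3:**
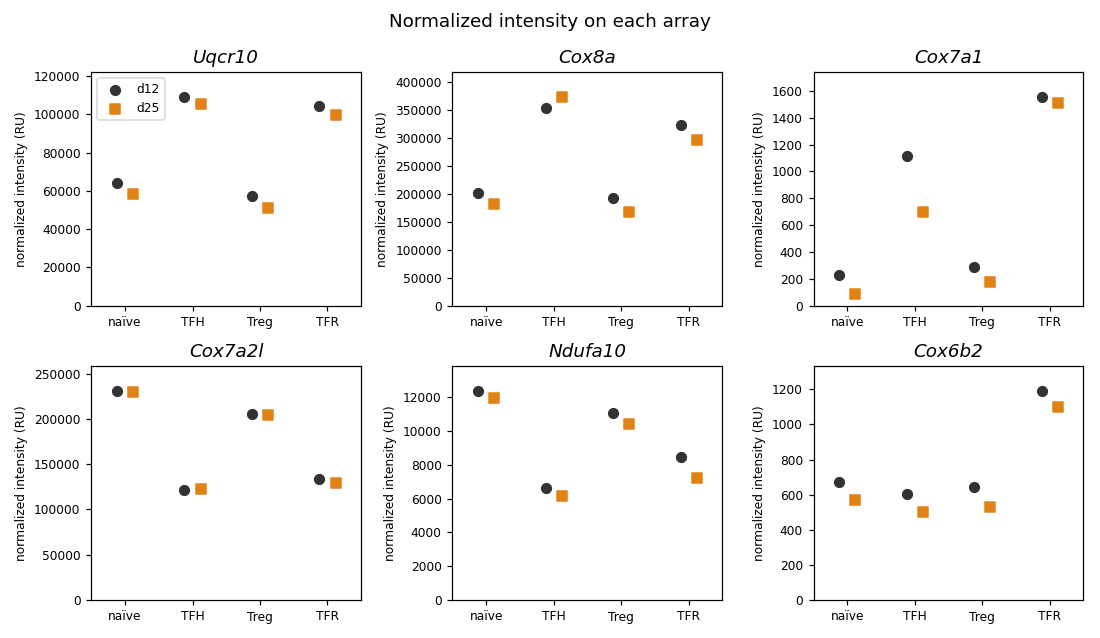
Normalized intensity in RU (vertical axis from 0) of 6 members on each of the 8 arrays, with circles for d12 and squares for d25. Uqcr10, Cox8a and Cox7a1 were higher and Cox7a2l and Ndufa10 lower on all TFH and TFR arrays than on the naïve and Treg arrays, and Cox6b2 was high on the 2 TFR arrays alone.

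TFR cells were compared with Treg cells to ask the same of Foxp3-expressing cells. Of the 83 members, 35 were called higher and 3 lower, against 18.7% and 20.9% of all genes, with a median difference of 0.26 against -0.08. The median was 0.26 with the d12 arrays alone and 0.23 with the d25 arrays alone. On 60 members the TFR level was above the Treg level at both days, as on 36.1% of all genes. With the 75th percentile scaling 23 members stayed called higher and 3 lower, the median was 0.21, and 2 of the 83 differences changed sign. This comparison leaned on its own 4 arrays: 4, 3, 6 and 4 members were called higher without the Treg d12, TFR d12, Treg d25 and TFR d25 array, and 20 without either naïve array, 20 with the slide as a block and 18 without the day, while the median stayed between 0.23 and 0.28. In these fits the lone array of a cell type is taken to vary like the other types.

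By complex, 14 of 36 members were called higher and 2 lower in complex I (median 0.24), 4 of 9 higher in complex III (0.24), 11 of 16 higher and 1 lower in complex IV (0.37), 6 of 18 higher in complex V (0.23) and none of 4 in complex II (0.04, 1 at an unadjusted p under 0.05). These counts were, with the 75th percentile scaling, 11 higher and 2 lower (median 0.22), 3 higher (0.05), 6 higher and 1 lower (0.31), 3 higher (0.09) and none (0.03). Over all genes 18.7% were called higher and 20.9% lower, and 18.3% and 19.9% with the 75th percentile scaling. Complex V went from 33.3% to 16.7% called higher. Uqcr10 lay at 57430 and 51203 RU in Treg and 104276 and 99614 RU in TFR cells, a rise of 0.91 ± 0.08 (1.88-fold, adjusted p = 0.00238). Cox8a rose by 0.78 and Cox6c by 0.62. In the core list 4 of 23 were called higher, a share of 17.4% and near the 18.7% of all genes. These were Ndufs8, Ndufv2, Cox5a and Cox5b, at 0.42, 0.35, 0.32 and 0.44, and the list's median was 0.05. The other 60 had 31 called higher (51.7%) and 2 lower and a median of 0.33. Ndufs1, the largest iron-sulfur subunit of complex I, was lower in TFR cells, with 10384 and 11477 RU in Treg and 8043 and 8950 RU in TFR cells (-0.36 ± 0.09, adjusted p = 0.0301). In TFH cells it differed by 0.08 from naïve cells.

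The 2 comparisons use different arrays, but both come from the same fit and share the spread estimated for each gene. Calls in both are therefore not independent. Called higher in both were 30 members and called lower in both 2, with 7 called in TFH cells only, 6 in TFR cells only and none in opposite directions. Of all genes, 20.9% were called higher in TFH and 18.7% in TFR cells, and the share called higher in both was not counted. The 30 had 13 members of complex I, 4 of III, 8 of IV and 5 of V, and 3 of the 30 were of the core list. Leaving out Cox7a1, they rose by 0.33 to 0.92 in TFH and by 0.30 to 0.91 in TFR cells. Across the 83 members the 2 differences correlated with Pearson's r = 0.82, and across all genes tested with r = 0.75, where genes are not independent replicates and the arrays share slides and days. After quantile normalization the change in TFR cells was the smaller for 22 of the 30, with a median ratio of the 2 log2 differences of 0.81. This depended on the scaling. The median of the 83 members was 0.32 in TFH and 0.26 in TFR cells, but 0.05 and 0.21 with the 75th percentile scaling. The difference between the 2 changes was tested for every member in the same fit. It was called for Cox6b2 alone, against 4.03% of all genes called higher and 4.46% lower, with 6 members at an unadjusted p under 0.05. A call in TFH or in TFR cells only does therefore not show that the other members differed between the 2 settings. The RefSeq gene length of the 30 had a median of 5172 bases, against 8180 in the other 53 members and 17146 in all protein-coding genes.

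**Figure D4:**
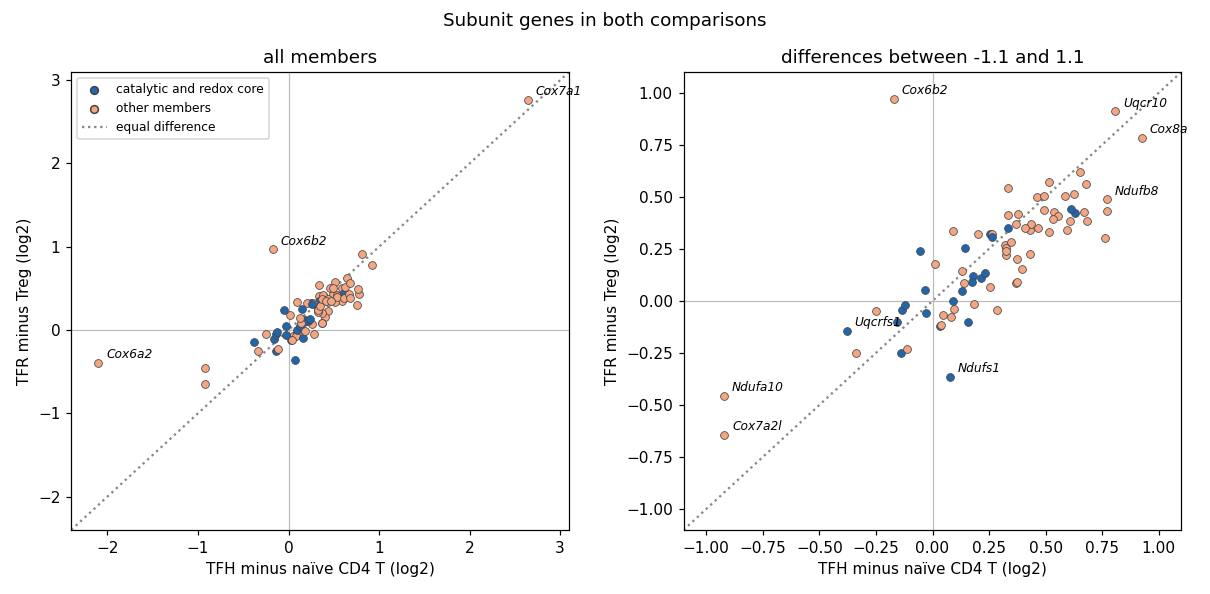
Difference of each member between TFH and naïve (horizontal axis) and between TFR and Treg cells (vertical axis), log2 scale, with core members in blue and the dotted line at equal differences. Most members lay in the upper right, the core members nearer to 0, and Cox6b2 off the line, while 20 of the TFH differences changed sign with the 75th percentile scaling.

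Genes with tissue isoforms gave the widest differences. Cox7a1, the heart and skeletal muscle isoform of subunit 7a, lay at 231 and 86 RU in naïve and 1116 and 695 RU in TFH cells, and at 287 and 177 RU in Treg and 1555 and 1513 RU in TFR cells. The follicular arrays lay above all others without overlap. The rise was 2.65 ± 0.33 in TFH cells (6.26-fold, adjusted p = 0.00335) and 2.76 ± 0.33 in TFR cells (6.80-fold, adjusted p = 0.00436), and both calls held under every alternative tried. Its size varied over the alternatives, from 1.74 to 3.13 in TFH and from 2.14 to 3.21 in TFR cells. The partner isoform Cox7a2, of liver and most tissues, differed by 0.35 and 0.28 and was not called.

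Cox6b2, known as the testis isoform of subunit 6b, lay at 674 and 570 RU in naïve, 601 and 503 RU in TFH, 642 and 532 RU in Treg and 1190 and 1102 RU in TFR cells. Both TFR arrays were above all other arrays, and those of the other 3 types overlapped. It was 0.97 ± 0.09 higher in TFR than in Treg cells (1.96-fold, adjusted p = 0.00233) and 1.06 ± 0.09 higher than in TFH cells (adjusted p = 0.00267), while TFH and naïve cells differed by -0.17 (adjusted p = 0.166). The difference between the 2 changes was 1.14 (adjusted p = 0.0122). It was 1.06 at d12 and 1.23 at d25. The common isoform Cox6b1 rose by 0.67 and 0.43.

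Cox6a2, the muscle isoform of subunit 6a, was well above background on 3 of 8 arrays, with 253 and 138 RU in naïve, 20 and 95 RU in TFH, 29 and 34 RU in Treg and 26 and 21 RU in TFR cells. Its mean naïve level over both days was at least 3.52-fold higher than the mean Treg level, which was not well above background (adjusted p = 0.106). The TFH difference was not called (adjusted p = 0.0757). The common Cox6a1 rose by 0.61 and 0.38, the first turning to -0.14 with the 75th percentile scaling. Cox4i2, the lung isoform of subunit 4, stayed between 126 and 206 RU, and neither it nor Cox4i1 was called here, Cox4i1 at 0.17 in TFH cells and -0.40 with the 75th percentile scaling. Ndufa4 rose by 0.43 and 0.37. Of the 3 genes for the same membrane ring protein of complex V, Atp5g3 rose in both (0.63 and 0.52), Atp5g1 was called in TFR cells (0.32) but its other probe gave -0.53, and Atp5g2 was not called (0.41 and 0.35).

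TFR cells were set against TFH cells to compare the 2 follicular types, a comparison that shares its arrays with both of those above. At d25 the TFH and TFR arrays lay on different slides, as did the naïve and Treg arrays. Slide and cell type can therefore not be told apart at d25 in these comparisons. Of the 83 members 2 were called higher and 3 lower, against 11.6% and 10.5% of all genes, with a median of -0.04 and 15 members at an unadjusted p under 0.05. Besides Cox6b2, Sdhd, which anchors complex II in the membrane, was higher in TFR cells by 0.41 ± 0.08, with 18959 and 19748 RU in TFH and 25011 and 26300 RU in TFR cells. Ndufb11, Ndufa1 and Atp5h were called lower, at -0.48, -0.43 and -0.33, and none of these 3 with the slide as a block. Leaving out any 1 array left only Cox6b2 called higher, and the other 4 calls were each lost under some alternatives. Between Treg and naïve cells no member was called by limma in either direction, against 5.89% and 3.98% of all genes, 1 member (Cox6a2) had an unadjusted p under 0.05 and the median was 0.03. With the 75th percentile scaling 4 members were called lower in Treg cells.

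Between d25 and d12 no member was called by limma (13 at an unadjusted p under 0.05), against 0.019% and 0.0507% of all genes called higher and lower, and the median was -0.06. Cox7a1 had the widest difference, -0.71 ± 0.23 with an adjusted p of 0.134. This term also holds the slide.

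Of the 83 members 29 had more than 1 probe above background. All probes of a member had the same sign for 21 in TFH and 22 in TFR cells. Among the called members with several probes this was so for 11 of 14 and 12 of 14. The exceptions were Atp5h, Ndufa13 and Uqcrh in TFH cells and Atp5g1 and Ndufa13 in TFR cells. Counting a member only when its probes had 1 sign left 34 called higher in TFH and 33 in TFR cells.

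The other lists of the pathway had calls in both directions, in shares that differed from list to list. Over all genes, 20.9% were called higher and 25.6% lower in TFH cells, and 18.7% and 20.9% in TFR cells. Of the 10 subunits encoded by mitochondrial DNA, 1, ND3, was called higher in TFH cells (0.42) and none lower, and 1, ND4L, lower in TFR cells (-0.72), with medians of 0.18 and -0.09. All 10 had lower values in TFR than in TFH cells, with a median of -0.38, and ND6 was the one called (-0.66). Apart from ND6 these genes were bright, with COX2 at 557589 to 688682 RU. With the 75th percentile scaling the median of all genes of 100000 RU or more went from -0.05 to -0.84 in TFH minus naïve cells. In TFR minus TFH cells it went from 0.02 to 0.13. The lists outside the members are given after quantile normalization only. Among 11 electron carriers and exchangers of ATP, 3 rose and 2 fell in TFH cells (27.3% and 18.2%, median 0.12). In TFR cells 4 rose and 2 fell (36.4% and 18.2%, median 0.35, with 9 of 11 values above 0 and the members at 0.26). Atpif1, the inhibitor of ATP synthase hydrolysis, rose by 1.37 ± 0.10 and 1.45, Etfb, which carries electrons from fatty acid oxidation, by 0.90 and 0.99, and Gpd2, of the glycerol phosphate shuttle, fell by 1.20 and 1.20. Cytochrome c, Cycs, was at 0.01 and 0.22 and not called.

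Of 40 assembly factors, 9 rose and 5 fell in TFH and 5 rose and 2 fell in TFR cells, with a median of 0.11 in each. The 22.5% that rose in TFH cells were near the 20.9% of all genes, and 12.5% fell. In TFR cells the shares were 12.5% and 5%. Cox17, a copper chaperone for complex IV, lay at 60 and 31 RU on the naïve arrays, not well above background, and at 874 and 160 RU in TFH cells. Its mean TFH level over both days was at least 6.40-fold higher than the naïve mean (limma, adjusted p = 0.00517). This bound does not hold for each day. In TFR against Treg cells Cox17 was at 1.49 and not called (adjusted p = 0.051), with 2 TFR arrays and 1 Treg array well above background. Sco2, another copper carrier of complex IV, fell by 0.90 and 0.85. Of 18 citrate cycle enzymes 2 rose and 4 fell (11.1% and 22.2%), then 1 and 4 (5.56% and 22.2%). Suclg2 fell by 0.81 in TFH and 0.73 in TFR cells and Fh1, fumarase, rose by 0.60 and 0.76. Of 21 genes of the outer membrane and import 1 rose and 5 fell (4.76% and 23.8%), then none rose and 3 fell (14.3%). Timm8a1 fell by 1.20 and 0.64 and Tomm20 by 0.77 and 0.73. In these 2 lists the shares called lower lay near or under those of all genes. Of 13 regulators of subunit genes 1 rose and 2 fell in TFH cells (7.69% and 15.4%) and 5 fell in TFR cells (38.5%). Myc fell by 2.69 and 1.29, Nrf1 was at -0.38 and -0.33 and Esrra at 0.11 and -0.05, neither called, and Yy1, Sp1 and Tfam were among those lower in TFR cells.

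**Figure D5:**
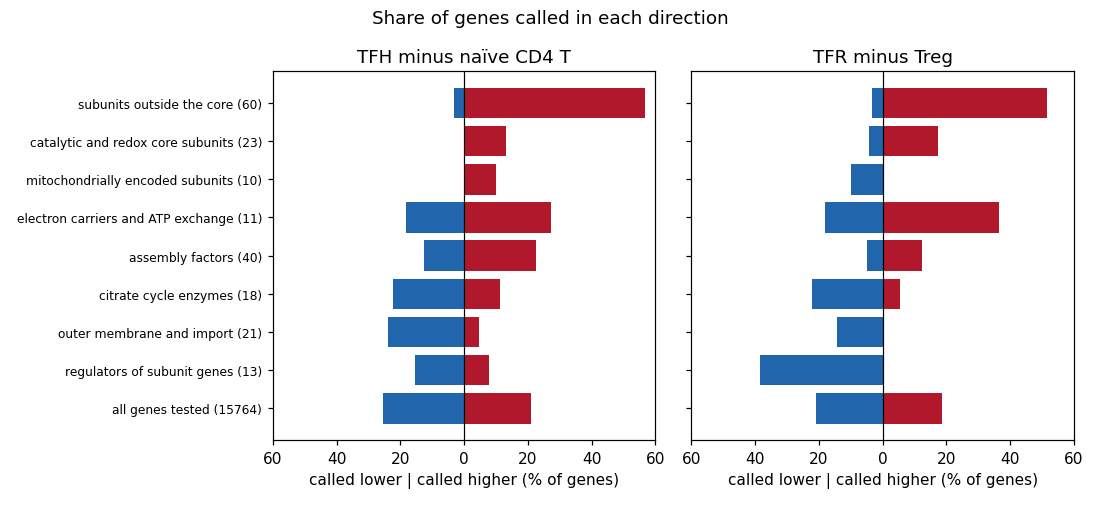
Share of genes called higher (right, red) and lower (left, blue) in percent for each list, with the number of genes in parentheses, for TFH minus naïve and TFR minus Treg cells. Subunits outside the core had the longest red bars of the lists drawn, 34 of 60 and 31 of 60, the first falling to 15 of 60 with the 75th percentile scaling.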

How the data were processed

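Total RNA (25 ng per pool) was hybridised to 8 one-colour Agilent arrays, each probe in 4 spots. The deposited scanner files hold spot intensity values, per the file headers background-corrected by Agilent Feature Extraction 10.7.3.1 (probe positions NCBI37); the authors also deposited a table of normalized intensity values, quantile normalized, with the 75th percentile at 1500 and a floor of 20. The authors' steps were rebuilt from the spots: exclusion of flagged spots, of spots outside 1.42 interquartile ranges and with a pixel variation above 0.5, the geometric mean of the rest, and the same normalization. Here 86.5% to 89.2% of spots were retained, the brightest 1% of probes lay 0.51 log2 above the deposited table on every array, and log2 values correlated with r of at least 0.999 with the deposited table. Depth has no counterpart on arrays; their number limits the precision.

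Groups came from the sample labels. The brightest probe of a gene was used. limma 3.58.1 (R 4.3.3) fitted cell type and day to all 15764 genes and 8 arrays (3 residual degrees of freedom, 1.89 prior), with Benjamini-Hochberg adjustment over all genes and a call at an adjusted p under 0.05; the fit was tested on simulated data. Members and gene lists were chosen with earlier results of these data known. Named members were, per comparison, the 5 called with the largest rise and the 5 with the largest fall of the same sign at both days, the core list, tissue isoforms and members called against their complex; other lists were named by their largest called changes. Alternatives covered normalization, background, spots, floor, filter, probes, variance prior, day, slide and each array. Figures used matplotlib. Cells of Peyer's patches were not analysed here. The values of 1 member of the core list are not reported here.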

Additional observations from a re-analysis of the deposited data

Results flagged for a closer look

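The change of Cox6b2 from Treg to TFR cells differed from its change from naïve to TFH cells by 1.14 on the log2 scale (limma, test of the difference itself, adjusted p = 0.0122), and it was the only one of the 83 members with a called difference. It was 0.97 in the first and -0.17 in the second comparison, with both TFR arrays above all others. It was no longer called under 7 alternatives. Over the alternatives the difference lay between 0.96 and 1.23 and its adjusted p between 0.00765 and 0.0686. No cause was tested.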

How the results depend on the processing

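The member counts and medians were recomputed under 19 alternatives with a test. With the 75th percentile scaling 17 members were called higher and 5 lower in TFH against naïve cells (median 0.0499), 23 higher in TFR against Treg cells (0.21), 1 lower in TFR against TFH cells, 4 lower in Treg against naïve cells and 2 higher in the difference between the changes, and Atp5h, Cox4i1 and Cox6a1 turned to -0.16, -0.40 and -0.14 in TFH cells, as did Uqcrh, to -0.45. With no replicate block, that is without the day that the replicate numbers stand for, 18 were higher in TFR against Treg cells, 1 was higher and 1 lower in TFR against TFH cells and 0 in the difference between the changes. Without this pairing by day 29 were called higher in TFH cells, against 37 with it. With the slide as a block 20 were higher in TFR against Treg cells and 1 higher and 0 lower in TFR against TFH cells, and the day could not be fitted. A variance prior with trend gave 4 higher and 9 lower in TFR against TFH cells, 2 higher and 3 lower in the difference between the changes and 2 lower at d25. TFR against TFH cells had 5 lower with normexp and 6 lower with a filter over all 8 arrays. No filter gave 1 higher in Treg against naïve cells and 2 lower in the difference between the changes. The TFH median was 0.30 with normexp, 0.30 in the authors' table, 0.31 with flags alone, 0.28 without the filter, 0.26 with the mean of probes, 0.28 at d12 and 0.28 at d25, and the TFR median 0.22 with the mean of probes and 0.23 at d25. The mean of probes turned Atp5g1 and Ndufa13 to -0.11 and -0.10 in TFR cells. Leaving out 1 array at a time gave 14 to 32 higher and 2 to 4 lower in TFH cells, 3 to 36 higher and 1 to 3 lower in TFR against Treg cells, 1 to 1 higher and 0 to 4 lower in TFR against TFH cells, 0 to 1 lower in Treg against naïve cells and 0 to 1 higher in the difference between the changes, the lone array being taken to vary like the other types. Medians then lay between 0.27 and 0.32 and between 0.23 and 0.28. The shares of all genes called without 1 array are not given, so these counts do not show a loss particular to the members. Counting a member only where its probes had 1 sign, chosen after seeing the data, gave 34 higher and 2 lower in TFH and 33 and 3 in TFR cells. Of 43 named calls 11 held under every alternative and 32 were lost under at least 1. The causes were not tested. Low signals limit Cox6a2, Cox4i2, Atp5s and Cox17, and low naïve and Treg levels limit the fold of Cox7a1.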
